A study of Mus musculus with 8 samples.

Results

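Intermediate filament genes of the neural and epithelial kinds were followed in mouse small cell lung cancer (SCLC) cells with forced expression of Nfib. The 10 genes were chosen by name and matched by symbol among the 22691 genes of the count table. They are 4 neurofilament class genes (Nefl, Nefm, Nefh and Ina) and 3 simple epithelial keratins (Krt8, Krt18 and Krt19). The other 3 (Vim, Nes and Synm) were grouped for this report as a vimentin-type class. Of the 10 genes, 6 passed the filter on low counts (Nefh, Ina, Nes, Synm, Krt8 and Krt18), and the other 4 are given by their counts.

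Intermediate filaments are ropes of coiled-coil proteins whose makeup follows the cell type. Neurons build them from neurofilament subunits and alpha-internexin, mesenchymal cells from vimentin, neural progenitors from vimentin and nestin, and simple epithelia from keratin 8 paired with keratin 18 or keratin 19. Keratins assemble only as pairs of an acidic and a basic chain. SCLC is a lung tumor with neuroendocrine features, so its cells can hold genes of both the epithelial and the neural programs.

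The data comprised RNA-seq counts of 8 libraries, 4 with Nfib overexpression and 4 with an empty vector. Nfib belongs to the nuclear factor I family of DNA-binding regulators. All 8 libraries came from lung tumor cells of mice whose labelled genotype, given here in part, includes invCAG-Mycl-Luc (a transgene holding Mycl) and Rb1-/-, on a background of FVB/n and 129/Ola. Each replicate number joins an Nfib library and an empty vector library of the same cell line, here called a pair or a culture. Culture 1 is line Lmyc1 (described as old), culture 2 is Lmyc3 (old), culture 3 is Lmyc3 (new) and culture 4 is Lmyc5 (new). The sample titles call the Nfib libraries Tumor and the empty vector libraries Control, and the groups here follow the source label. The labels do not say what old and new mean, what promoter drives Nfib, or whether a line is a clone. An age of the animals is not among the labels.

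Total counts ran from 21815264 in empty vector replicate 2 to 29934021 in empty vector replicate 1. At those depths, 3 counts correspond to between 0.1 and 0.138 CPM, the count scaled to library size. The 2 cultures of Lmyc3 were no more alike than cultures of different lines. Deviations of libraries from the group means were correlated across arms (Pearson r across genes, which are not independent replicates). The values were -0.482 and -0.534 between the 2 Lmyc3 cultures, and 0.884 or more within 1 culture. Between cultures 3 and 4, of different lines, they were -0.532 and -0.454, and between cultures 1 and 3 they were 0.0332 and 0.0647. Subtracting a mean of 4 libraries itself lowers values between cultures, so their negative sign was not read as a difference. The introduced gene followed the labels. Nfib had 1282, 4682, 2933 and 3590 CPM in Nfib replicates 1 to 4, against 72.0, 400.2, 163 and 487 CPM in empty vector replicates 1 to 4. Neuroendocrine markers were present throughout, with a summed level of 1994 to 4425 CPM in Nfib libraries and 2901 to 4741 CPM in empty vector libraries. Of the fibroblast markers, Col1a1, Col1a2, Col3a1, Dcn, Lum, Acta2 and Tagln stayed under 1 CPM in every library. The others did not: Fbln1 reached 37.8 CPM (empty vector replicate 2), Pdgfra 12.1 CPM (Nfib replicate 4) and Pdgfrb 1.29 CPM (empty vector replicate 1).

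Krt8 and Krt18, the keratin pair of simple epithelia, spanned the widest range of culture means among the 6 tested filament genes. Krt8 had 406, 39.6, 1236 and 0.702 CPM in Nfib replicates 1 to 4, against 399.6, 49.6, 1293 and 1.04 CPM in empty vector replicates 1 to 4. Both arms of a culture lay close together and no culture overlapped another, in the order 3, 1, 2 and 4 from high to low. The mean of culture 3 (1265 CPM) was 1453-fold that of culture 4 (0.87 CPM). Krt18, the acidic partner, had 127, 13.1, 255 and 4.64 CPM in Nfib replicates 1 to 4, against 128, 24, 305 and 6.36 CPM in empty vector replicates 1 to 4. Its cultures fell in the same order without overlap, but over a narrower range of 50.9-fold between the means of cultures 3 and 4.

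Krt19, an acidic keratin that lacks most of the tail domain, had 151, 2, 1195 and 0 counts in Nfib replicates 1 to 4, against 11, 3, 908 and 0 counts in empty vector replicates 1 to 4. It was thus well above 3 counts in both arms of cultures 1 and 3 only, the cultures with the most Krt8. In culture 1 it stood at 6.58 CPM with Nfib and 0.373 CPM with empty vector, while in culture 3 it stood at 51.6 CPM with Nfib and 33.7 CPM with empty vector. Krt19 did not pass the filter, and the 17.6-fold higher level with Nfib in culture 1 comes from a single pair.

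The neurofilament class was split between genes present in every culture and genes present in 1. Ina, which encodes alpha-internexin, had 199, 355, 138 and 221 CPM in Nfib replicates 1 to 4, against 219.8, 329, 135 and 249.7 CPM in empty vector replicates 1 to 4. Its culture means spanned 2.5-fold, highest in culture 2 and lowest in culture 3, with no overlap between neighbouring cultures. Nefl, which encodes the light subunit, had 2743 counts in Nfib replicate 2 (126 CPM) and 862 counts in empty vector replicate 2 (40.8 CPM), and at most 4 counts in any other library. Nefm, which encodes the medium subunit, had 1194 counts in Nfib replicate 2 (54.9 CPM) and 565 counts in empty vector replicate 2 (26.7 CPM), and at most 2 counts elsewhere. The heavy subunit was therefore counted in cultures where the light and medium subunits were at or under a few counts.

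Nefl lies on chromosome 14 (68083863 to 68089095, plus strand, GRCm38) within the span of Nefm on the minus strand, and the annotated exons of the 2 genes share 1108 bases. The library kit was named without a strand setting, so reads in the shared bases cannot be assigned, and the levels of the 2 genes in culture 2 are uncertain to that extent. Ina (chromosome 19, 47014698 to 47025327, plus strand) likewise shares 456 exon bases with Nt5c2. Nefh (chromosome 11, 4938754 to 4948064, minus strand) shares none.

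The vimentin-type genes were low in most libraries. Vim, which encodes the mesenchymal filament protein vimentin, had 4, 308, 3 and 11 counts in Nfib replicates 1 to 4, against 5, 36, 6 and 12 counts in empty vector replicates 1 to 4. In CPM it stood at 14.2 in Nfib replicate 2 and at 1.7 in empty vector replicate 2, and under 1 CPM in all other libraries. Nes, which encodes nestin, a filament protein of neural progenitors, had 1.26, 2.48, 1.08 and 0.898 CPM in Nfib replicates 1 to 4, against 1.7, 17.2, 0.371 and 1.08 CPM in empty vector replicates 1 to 4. Both genes thus had their highest library in culture 2, Vim in the Nfib arm and Nes in the empty vector arm.

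Differences among the 4 cultures were tested with edgeR's quasi-likelihood F test of the 3 replicate terms, with the Nfib effect in the model and Benjamini-Hochberg adjustment over the 13380 genes tested. Each of the 6 tested filament genes passed, against 76.7% of all genes tested (77.9% by DESeq2's likelihood ratio test, and 48.1% with no filter on low counts, where all 10 passed), so that passing was common and says little about these genes in particular. The adjusted p was 2.07e-05 for Krt8, 0.000106 for Krt18, 0.000581 for Ina, 0.00136 for Nefh, 0.0386 for Nes and 0.0434 for Synm. The last 2 calls did not hold when some replicates were left out: the adjusted p of Nes was 0.0618, 0.262 and 0.0751 without replicates 1, 2 and 4, and that of Synm was 0.202 and 0.06 without replicates 1 and 4. A culture stands for itself here, because lines were not replicated beyond the 2 Lmyc3 cultures.

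**Figure D1:**
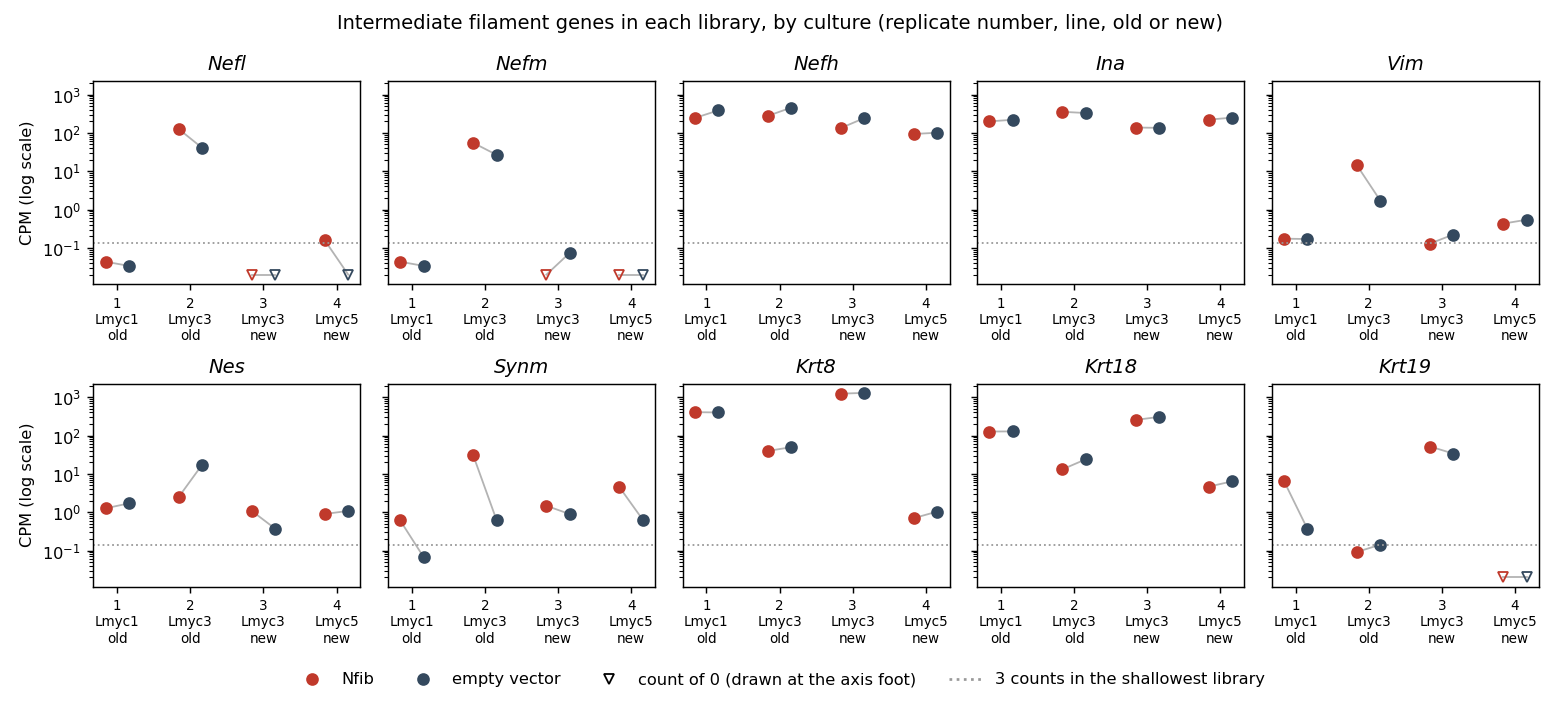
CPM (log scale) of each of the 10 genes in the 4 cultures, with the Nfib library left of the empty vector library of its pair; downward triangles mark a count of 0 and the dotted line 3 counts in the shallowest library. Krt8, Krt18 and Krt19 step down from culture 3 to 1, 2 and 4, whereas Nefl and Nefm reach 26.7 CPM or more in both arms of culture 2 and at most 0.156 CPM elsewhere.

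To compare genes with each other, CPM was divided by exon length in kilobases, since longer transcripts collect more reads. On that scale, summed over the 10 genes, the keratins made up 70.9% of the total in Nfib replicate 1 and 64.1% in empty vector replicate 1, and 91.6% in Nfib replicate 3 and 89.7% in empty vector replicate 3. The neurofilament class made up 86.1% in Nfib replicate 2 and 83.7% in empty vector replicate 2, and 95.4% in Nfib replicate 4 and 95.1% in empty vector replicate 4. The vimentin-type class stayed small, at most 2.74% (Nfib replicate 2). A high share was not always a high level. The summed neurofilament level in culture 4 was 91.6 CPM per kb with Nfib and 102 with empty vector. That was below culture 1 (122 and 164, Nfib first) and near culture 3 (76.1 and 103). The keratins of culture 4 summed to only 3.59 and 4.96 CPM per kb. The 2 Lmyc3 cultures were on opposite sides: culture 2 was rich in neurofilament genes and culture 3 in keratins. Krt7, a keratin outside the 10 genes, was not in these sums. It had 469, 52.6, 861 and 41.7 CPM in Nfib replicates 1 to 4. In empty vector replicates 1 to 4 it had 455, 59.5, 826 and 67.3 CPM. The low keratin shares of cultures 2 and 4 thus cover Krt8, Krt18 and Krt19 only.

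The balance of summed neurofilament to summed keratin levels moved little with Nfib compared with these steps between cultures. The log2 ratio of summed neurofilament to summed keratin level was -1.29, 2.94, -3.46 and 4.67 in Nfib replicates 1 to 4, against -0.84, 2.47, -3.12 and 4.37 in empty vector replicates 1 to 4. Within pairs the difference was -0.45, 0.48, -0.34 and 0.31 for pairs 1 to 4, so that 2 pairs leaned toward keratins with Nfib and the other 2 toward neurofilaments. The summed level itself was lower with Nfib in every pair, at 422, 262, 913 and 96.0 CPM per kb in Nfib replicates 1 to 4, against 458, 278, 994 and 108 CPM per kb in empty vector replicates 1 to 4. The mean within-pair difference of the ratio was -0.0024 (SD 0.46, n = 4 pairs), and 0.66 (SD 0.76) toward neurofilaments when the median log2 level over each class replaced the sum, which gives the genes at a few counts equal weight. These sums were not tested, as the genes were chosen by hand.

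**Figure D2:**
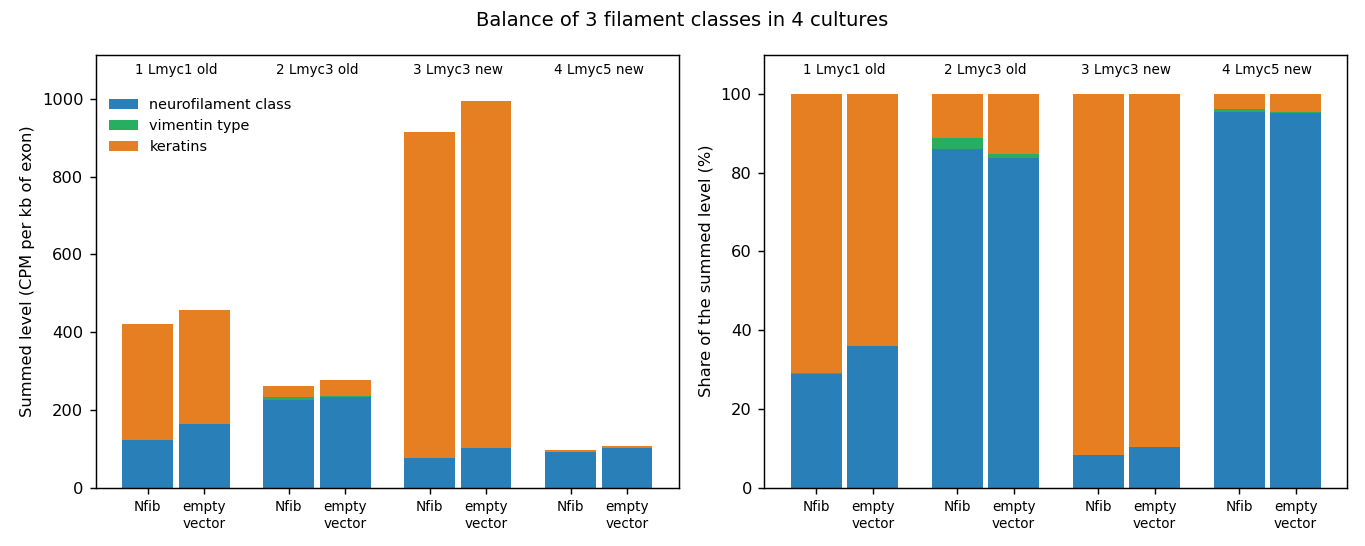
Summed CPM per kb of exon and percent of that sum for the neurofilament, vimentin-type and keratin classes, with the Nfib bar left of the empty vector bar in each culture. By share, cultures 1 and 3 are mostly keratin and cultures 2 and 4 mostly neurofilament class, in both arms. The summed neurofilament level of culture 4 is below that of culture 1.

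Ratios between partners of a filament were read from the same scale. Per kb, Krt8 stood above Krt18 in cultures 1 to 3 and far below it in culture 4, where both were low: the ratio was 2.35, 2.22, 3.56 and 0.111 in Nfib replicates 1 to 4, against 2.29, 1.52, 3.11 and 0.120 in empty vector replicates 1 to 4. In culture 4 Krt8 had 18 counts with Nfib and 23 counts with empty vector. Krt7, which was not part of this ratio, had 41.7 CPM with Nfib and 67.3 CPM with empty vector there. Nefh over Ina per kb was 0.993, 0.634, 0.793 and 0.343 in Nfib replicates 1 to 4, against 1.42, 1.13, 1.46 and 0.328 in empty vector replicates 1 to 4. The Nefh to Ina ratio was below 1 in every Nfib library and above 1 in 3 of the 4 empty vector libraries.

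**Figure D3:**
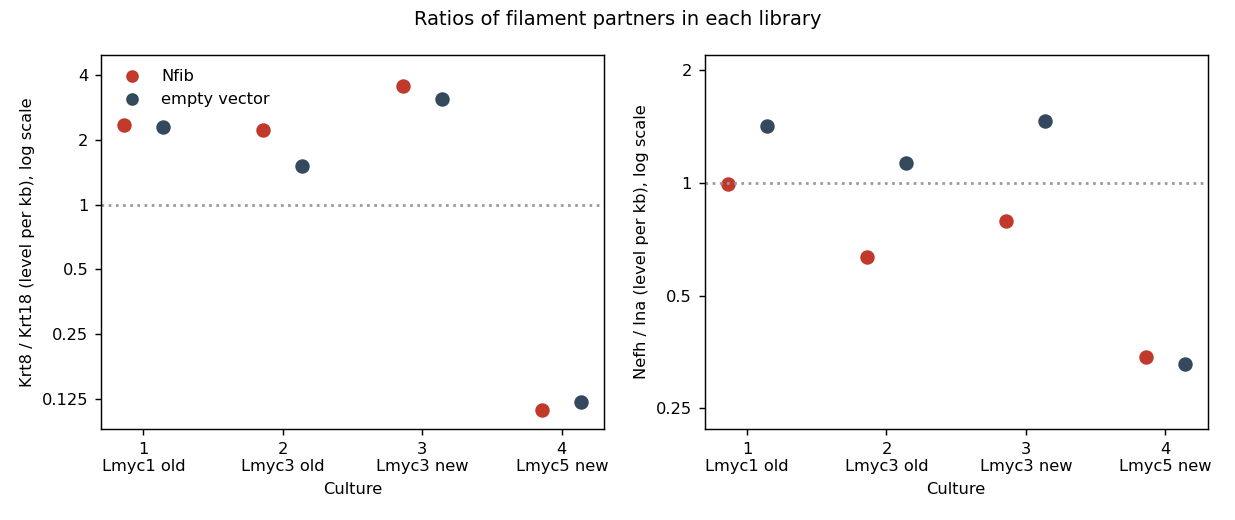
Ratio of Krt8 to Krt18 and of Nefh to Ina, both from CPM per kb on a log scale, in each culture with Nfib left of empty vector; the dotted line marks a ratio of 1. The Krt8 to Krt18 ratio falls under 1 only in culture 4, and the Nefh to Ina ratio is lower with Nfib in cultures 1 to 3.

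The effect of Nfib was tested within pairs with DESeq2 (replicate number as a block), whose calls at a Benjamini-Hochberg adjusted p of 0.05 are the ones written below as rose or fell. The paired DESeq2 test was chosen with earlier results of these data known, in which edgeR called no gene. It called 543 of 13380 genes, or 4.06% (1.86% higher and 2.2% lower with Nfib). The split was 249 higher and 294 lower, against 324 higher and 201 lower when libraries were scaled by total counts. Of the 6 filament genes tested, 1 rose (Synm) and 1 fell (Nefh), and their median log2 fold change was -0.27, beside -0.0062 over all genes tested. These calls depended on the test. edgeR with the same block called no gene (2012 at an unadjusted p under 0.05), its bias-adjusted form called 44 (0.329%) and no filament gene, and edgeR without pairing called none (83 at an unadjusted p under 0.05), while DESeq2 without pairing called 3. Nothing in the labels says that pairs are separate transfers of independent cultures, so the p-values given here cover only how these libraries vary, which may be technical.

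Nefh, which encodes the heavy neurofilament subunit whose phosphorylated tail spaces axonal filaments, fell. It had 244, 277, 134 and 93.5 CPM in Nfib replicates 1 to 4, against 384, 456, 243 and 101 CPM in empty vector replicates 1 to 4. The Nfib library was the lower of its pair in 4 of 4 pairs, by little in pair 4, and the 2 groups overlapped across cultures. The mean was 187 ± 87.3 CPM with Nfib and 296 ± 157 CPM with empty vector (SD, n = 4 each). The log2 fold change was -0.60 ± 0.14 (SE) with a DESeq2 adjusted p of 0.00124, and -0.59 ± 0.13 with an adjusted p of 0.178 in edgeR with the block. Without replicate 3 the DESeq2 adjusted p was 0.0552.

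Synm, which encodes synemin, a large filament protein that co-assembles with vimentin or desmin and links them to dystrophin-associated proteins, rose. It had 14, 656, 34 and 115 counts in Nfib replicates 1 to 4, against 2, 13, 24 and 14 counts in empty vector replicates 1 to 4. In CPM this was 0.610, 30.2, 1.47 and 4.49 with Nfib, against 0.0678, 0.615, 0.891 and 0.632 with empty vector. The Nfib library was the higher in 4 of 4 pairs. The size ranged from 1.65-fold in pair 3 to 49.1-fold in pair 2, and the lowest Nfib library lay below the highest empty vector library. The log2 fold change was 3.04 ± 0.74 (SE, DESeq2 adjusted p of 0.00252), and 3.08 ± 0.86 with an adjusted p of 0.234 in edgeR with the block. Without replicate 2 it was 2.14 ± 0.80 with a DESeq2 adjusted p of 0.153. Synm (chromosome 7, 67730161 to 67759742, minus strand, GRCm38) shares 510 exon bases with genes on the other strand.

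The other tested members did not pass the paired DESeq2 test. Ina was 228 ± 91.5 CPM with Nfib and 233 ± 80.0 CPM with empty vector (SD, n = 4 each), a log2 fold change of -0.055 ± 0.081 (adjusted p of 0.887). Krt18 was the lower with Nfib in 4 of 4 pairs, at -0.39 ± 0.16 (adjusted p of 0.172), and 12.8% of all genes tested were lower in all 4 pairs. Krt8 was at -0.15 ± 0.12 (adjusted p of 0.651). Nes was at -0.51 ± 0.67 (adjusted p of 0.857), a value carried by culture 2, since it was 0.23 without replicate 2.

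Without the filter on low counts, the paired DESeq2 test also called Nefl higher with Nfib, at 1.64 ± 0.37 (adjusted p of 0.000931), a value that rests on pair 2, the pair that holds nearly all of its counts. Under that setting Nefm was at 0.52 ± 0.70 (adjusted p of 0.86), and Vim and Krt19 did not pass (adjusted p of 0.869 and 0.795). The Vim level in pair 2 was 8.32-fold higher with Nfib, whereas its ratio in the other pairs came from 12 counts or fewer a library.

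Whether the change with Nfib differed between the pairs called old (1 and 2) and new (3 and 4) was tested as an interaction in edgeR with the block. It called 0 of 13380 genes (405 at an unadjusted p under 0.05; DESeq2 called 7, or 0.0523%), and none of the 6 filament genes. Synm had the smallest p among them, with a difference of -3.37 on the log2 scale for new minus old (p of 0.0277, adjusted p of 1).

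**Figure D4:**
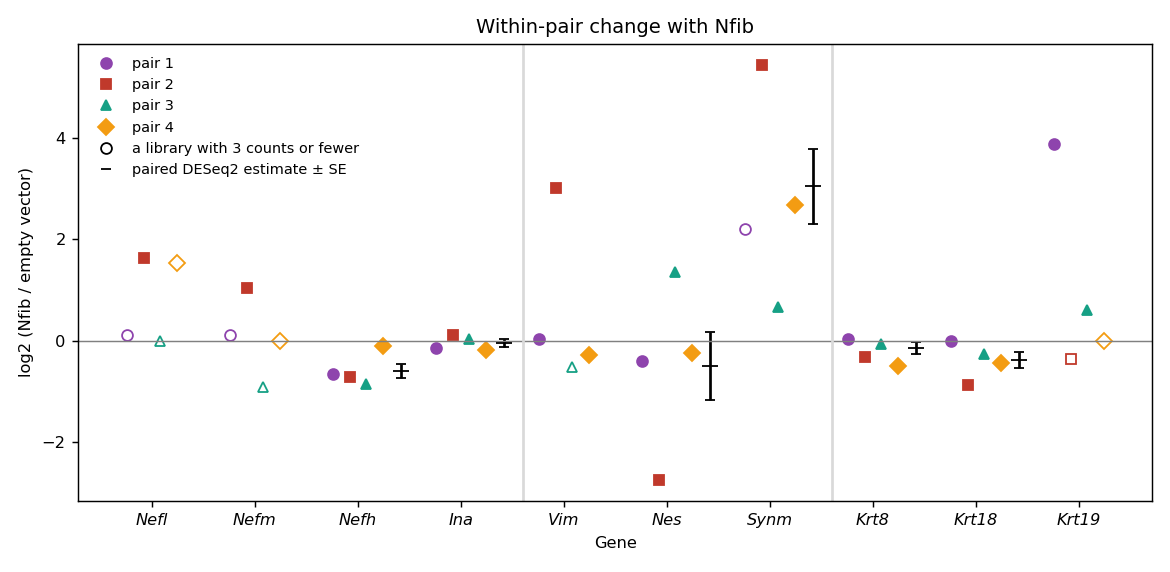
Within-pair log2 ratio of Nfib to empty vector for the 10 genes, 1 marker a pair, hollow where a library had 3 counts or fewer, with the paired DESeq2 estimate ± SE for tested genes. Nefh and Krt18 lie at or below 0 in all 4 pairs and Synm above 0 in all 4, with pair 2 at the top.

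The promoter windows of the called Synm, of Vim, which was highest in the same library, and of the keratin pair Krt8 and Krt18, which had the smallest adjusted p between cultures among the 6 tested filament genes, are shown because Nfib binds DNA. The windows run from 250 bases before to 50 bases after the start (RefSeq, GRCm38.p6; 6 of the 10 genes matched). Capitals mark TTGGC or its complement GCCAA, the short motif that nuclear factor I proteins bind, searched on both strands.
Synm (chr7:67759693-67759992, minus strand): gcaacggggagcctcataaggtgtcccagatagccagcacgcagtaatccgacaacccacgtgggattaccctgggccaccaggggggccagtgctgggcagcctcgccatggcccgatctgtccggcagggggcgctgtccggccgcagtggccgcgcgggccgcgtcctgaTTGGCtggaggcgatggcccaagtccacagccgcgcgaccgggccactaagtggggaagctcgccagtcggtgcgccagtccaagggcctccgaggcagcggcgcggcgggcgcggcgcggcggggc
Vim (chr2:13574061-13574360, plus strand): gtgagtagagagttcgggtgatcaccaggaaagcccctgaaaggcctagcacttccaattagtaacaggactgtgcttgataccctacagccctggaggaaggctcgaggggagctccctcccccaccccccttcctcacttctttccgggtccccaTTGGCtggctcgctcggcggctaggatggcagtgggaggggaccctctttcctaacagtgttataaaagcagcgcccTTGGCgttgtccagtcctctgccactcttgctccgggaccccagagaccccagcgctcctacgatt
Krt8 (chr15:102004293-102004592, minus strand): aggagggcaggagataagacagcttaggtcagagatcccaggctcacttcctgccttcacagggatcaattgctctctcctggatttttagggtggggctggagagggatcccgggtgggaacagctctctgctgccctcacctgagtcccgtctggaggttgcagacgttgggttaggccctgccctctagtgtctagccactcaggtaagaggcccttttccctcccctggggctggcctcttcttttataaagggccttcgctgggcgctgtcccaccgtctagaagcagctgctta
Krt18 (chr15:102027966-102028265, plus strand): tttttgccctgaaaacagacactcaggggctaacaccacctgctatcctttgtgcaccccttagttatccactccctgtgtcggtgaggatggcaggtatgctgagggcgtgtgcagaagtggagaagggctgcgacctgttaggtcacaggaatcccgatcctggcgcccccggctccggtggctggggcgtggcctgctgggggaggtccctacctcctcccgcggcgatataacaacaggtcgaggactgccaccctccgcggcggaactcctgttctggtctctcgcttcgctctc

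The Synm window held 1 such motif, at -77 from the start, and the Vim window held 2, at -93 and -16. The Ina window held 1, at -234, and the windows of Krt8, Krt18 and Nes held none. The motif was present in 46.7% of the 32851 promoter windows searched, and at least 2 in 14.4%. The full palindrome (TTGGC, then 5 bases of any kind, then GCCAA) was in none of these 6 windows and in 0.0365% of all windows. A match of letters is not evidence of binding, and the absence of a match says only that these letters are not in the window. Krt8 and Krt18 lie on chromosome 15 with a gap of 23.9 kb between them.

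Genes that work with filaments were read from lists assembled with earlier results of these data known. Among linkers that tie filaments to membranes and junctions, 26 of 27 were tested and 2 rose (7.69%, against 1.86% of all genes tested), none fell. Dtna, which encodes alpha-dystrobrevin, a partner of the dystrophin complex, had 58.0, 180.3, 49.3 and 71.9 CPM in Nfib replicates 1 to 4, against 40.8, 124, 30.6 and 31.1 CPM in empty vector replicates 1 to 4. It was higher in 4 of 4 pairs, at 0.72 ± 0.15 (DESeq2 adjusted p of 0.000172), and passed without each replicate in turn. Dmd, which encodes dystrophin, was at 1.39 ± 0.43 (DESeq2 adjusted p of 0.0354), with 28.8 CPM in Nfib replicate 2 and 4.64 CPM in empty vector replicate 2, and it passed in 1 of the 4 tests that left out a replicate. The most abundant linkers, Dsp (desmoplakin) and Macf1, did not pass (adjusted p of 0.745 and 0.439).

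Among axonal and microtubule partners, 28 of 29 were tested and 3 fell (10.7%, against 2.2% of all genes tested), none rose. Dclk1, a microtubule-associated kinase, had 61.9, 144, 2.59 and 19.9 CPM in Nfib replicates 1 to 4, against 119, 289, 11 and 39 CPM in empty vector replicates 1 to 4. It was lower in 4 of 4 pairs, at -1.21 ± 0.20 (DESeq2 adjusted p of 5.92e-07), and passed without each replicate in turn. The tubulin genes Tuba1a (-0.29 ± 0.075, adjusted p of 0.00521) and Tubb2b (-0.81 ± 0.24, adjusted p of 0.0212) also fell, and passed in 1 and 2 of the 4 tests that left out a replicate. The most abundant of the list, Dync1h1 and Sptan1, did not pass (adjusted p of 0.946 and 0.953).

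The 5 called genes of these lists did not pass in edgeR with the block, where their adjusted p ran from 0.156 to 0.241. None of the other cytoplasmic filament genes (10 of 22 in the table were tested; Krt7 and Tchp the most abundant) and none of the 10 lamin genes and partners (Tmpo and Lmnb1 the most abundant) passed. Median log2 fold changes were 0.13 for the linkers, -0.15 for the axonal partners, -0.068 for other filament genes and 0.07 for lamins, beside -0.0062 over all genes tested.

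Marker levels of other cell types moved with some of these values. Epithelial markers, led by Krt7 and Cdh1, summed to 1106, 144, 2304 and 117 CPM in Nfib replicates 1 to 4, against 1107, 159.9, 2438 and 131 CPM in empty vector replicates 1 to 4. The sums fell in the same order of cultures as the keratins, but Krt7 is itself a keratin. Cdh1, Epcam and Cldn7 were lower in culture 4 than in culture 2. Cldn3 was higher there (69 and 54.5 CPM, against 3.04 and 2.98 CPM, Nfib first), as was Krt7 with empty vector (67.3 against 59.5 CPM). Vim and Nefl were highest in culture 2 in both arms, and Synm in the Nfib arm only. In that culture the neuroendocrine markers summed to 1994 CPM with Nfib and 3481 CPM with empty vector. The astrocyte or Schwann cell markers summed there to 40.0 CPM with Nfib and 14.5 CPM with empty vector. Fibroblast markers summed to 1.47 to 40.4 CPM in Nfib libraries and 2.63 to 48.3 CPM in empty vector libraries, led by Fbln1 and Pdgfra. Endothelial markers summed to 44.9 to 576 CPM with Nfib and 51.8 to 650.1 CPM with empty vector, nearly all of it Vwf, with Kdr next at 5.75 and 6.48 CPM in Nfib replicates 2 and 3. Leukocyte markers summed to at most 2.5 CPM with Nfib and 2.48 CPM with empty vector, and mesothelial markers to at most 0.368 CPM with Nfib and 0.111 CPM with empty vector. The part of these markers in the filament results was not tested. In bulk samples, fewer cells of a type and less RNA per cell cannot be told apart.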

How the data were processed

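The deposited table holds whole-number read counts per gene for 8 libraries, with no normalization by the authors. The submitters' processing notes name TopHat2 2.1, Bowtie 1.0.0, SAMtools 0.1.19, DESeq2 and GRCm38 (mm10). The counting program and its strand setting are not stated in the labels or the table. The labels give tumor-derived cells as the source, while their extraction text speaks of DNA from frozen tumors.

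Groups came from the source labels and pairs from the cell line in the descriptions. Libraries of the same number deviated together from the group means (r of 0.884 to 0.935 across genes; at most 0.0647 for other combinations), so the number was used as a block. Genes were kept by filterByExpr (13380 of 22691). edgeR 4.0.16 (quasi-likelihood, original form, TMM factors), DESeq2 1.42.0 (Wald, replicate block) and limma 3.58.1 (voom) ran in R 4.3.3, with Benjamini-Hochberg adjustment at 0.05. The adjustment in edgeR and voom was over all genes tested. By default DESeq2 leaves genes of low mean count out of its adjustment. In its paired test 260 of 13380 genes had no adjusted p, and 8799 of 22691 without the filter on low counts. Percentages called are of all genes tested. The scripts were tested on simulated data. CPM used TMM-scaled library sizes, log2 CPM a prior count of 2, and lengths the exon union of GENCODE. Alternatives were other scalings, no filter, other tests and blocks, and each replicate left out. The floor of 3 counts covers counting error only.

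Members, lists and the paired DESeq2 test were chosen with earlier results of these data known. The named genes were the 10 members, Nfib, each reported list's called genes and 2 most abundant genes, and for Nefh, Synm, Vim and Krt8 the 3 genes of at least 10 CPM with the most similar profile. Filament protein sequences were not analysed here, and some of the labelled genotype and 1 list, called genes included, are not reported here.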

Additional observations from a re-analysis of the deposited data

Results flagged for a closer look

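Groups of 4 libraries or 4 pairs were checked for a value far from the rest. The rule flags about 1 in 20 groups of independent, normally distributed values. That rate does not apply here, because the 2 arms of a culture share their cells and the genes were chosen with earlier results known. Of 30 groups, 10 held such a value. Of these, 8 lay in culture 2 (Lmyc3, old). Nefl stood apart in both arms of that culture, at 126 CPM in Nfib replicate 2 and 40.8 CPM in empty vector replicate 2. Nefm did so as well, at 54.9 CPM in Nfib replicate 2 and 26.7 CPM in empty vector replicate 2. In the Nfib arm alone, Synm reached 30.2 CPM and Vim 14.2 CPM in replicate 2, far above the other 3 Nfib libraries. In the empty vector arm alone, Nes reached 17.2 CPM in replicate 2. The within-pair log2 ratio of Vim was 3.0 in pair 2, apart from the other 3 pairs. The remaining values were those of Krt19 in culture 3 (Lmyc3, new), at 51.6 CPM in Nfib replicate 3 and 33.7 CPM in empty vector replicate 3.

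Vim was also higher with Nfib in both old pairs and lower in both new pairs, with a mean difference of -1.92 (log2, new minus old). This difference was not tested, since Vim did not pass the filter on low counts, and 3 of the 4 pairs rest on 12 counts or fewer a library.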

How the results depend on the processing

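The number of genes called for Nfib against empty vector depended on the test and on the block. edgeR without a block called 0 genes, where the alternatives gave 543 (DESeq2 with the replicate block, 2 of them filament genes), 3 (DESeq2 without it), 3 (limma voom with it) and 44 (edgeR with the block, bias-adjusted form). Against the 543 genes and 2 filament genes of the paired DESeq2 test, edgeR with the replicate block called 0 and 0, its bias-adjusted form 44 and 0, voom 3 and 0, no block 3 and 0, and a block by cell line 35 and 1 (Synm). Leaving out each replicate gave 234 to 382 genes and 1 to 2 filament genes. Nefh lost its call without replicate 3 and Synm without replicate 2. The log2 fold change of Nes was 0.23 without replicate 2, the opposite sign to the full data (-1.17 without replicate 3). Without the filter on low counts, 10 rather than 6 filament genes differed between cultures, against 48.1% of all genes. For old against new, DESeq2 called 7 genes where edgeR called 0. Taking the median of log2 levels over members in place of summed levels gave a mean within-pair change of the neurofilament to keratin balance of 0.66 (log2, SD 0.76), against -0.0024 (SD 0.46). Total-count scaling changed no filament call. The causes were not tested, and genes at a few counts a library remain limited by depth.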

Other observations

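Genes whose log2 CPM most resembled that of a filament gene over the 8 libraries were sought among 9863 genes of at least 10 CPM, given as a description, since the 2 libraries of a culture share their cells. The profile of Krt8 was closest to those of Tmem184a (Pearson r of 0.999), Lad1 (0.998) and St14 (0.998). Nefh was closest to Smyd2 (0.983), Resp18 (0.975) and Dtnbp1 (0.972). Synm was closest to Lrrfip2 (0.985), Dnajc25 (0.965) and Slc25a16 (0.955), and Vim to Heatr6 (0.986), Ints2 (0.985) and Prpf8 (0.984). The values for Synm and Vim lean on Nfib replicate 2, where both genes were highest.

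Prph encodes peripherin, another neuronal filament protein. It had 0.479, 9.06, 1.3 and 3.08 CPM in Nfib replicates 1 to 4, against 0.204, 2.08, 2.19 and 1.44 CPM in empty vector replicates 1 to 4. The Nfib library was the higher in 3 of 4 pairs and the lower in pair 3. Prph did not pass the paired DESeq2 test (adjusted p of 0.509). It was chosen after its values were seen.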
